A study of Mus musculus with 16 samples.

Results

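The 43 genes described here are mouse homeobox genes that mark or specify regions of the developing brain, taken by name from a list of brain patterning genes and matched by Entrez identifier. They are 43 of the 27179 genes in the count files. By what they are known for, they were put into 6 sets. These are forebrain and eye field (11 genes), midbrain and hindbrain (8) and dorsoventral pattern of the neural tube (7), then neuron subtypes (6), the MEIS, PBX and SIX4/5 factors (6), and the POU3 and ZFHX factors (5). All 43 matched a gene in the files.

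The libraries came from neural stem and progenitor cells of mouse cortices and ganglionic eminences dissected at E14.5 and grown as neurospheres. Null cells were Kat7lox/loxNesCreT/+, so that Cre recombinase deleted the floxed gene for the histone acetyltransferase KAT7 (HBO1), and intact cells were Kat7+/+NesCreT/+. The NesCre transgene uses Nestin sequences, which are active in neural progenitors, and was present in both genotypes. The 4 groups of 4 libraries were null differentiating, intact differentiating, null proliferating and intact proliferating cells. Differentiating cells had been dissociated after passage 3 and kept for 3 days on laminin, in cortical neuron medium. Proliferating cells had been kept for 3 passages and 3 days in neurosphere medium and were replated at 20000 cells per square centimetre. Cells were isolated from 4 foetuses of each genotype, so that the p-values measure the spread between isolates. The labels do not tie differentiating to proliferating libraries of the same foetus.

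Homeobox genes encode transcription factors with a DNA-binding homeodomain. In the neural tube, overlapping domains of these factors divide the brain from front to back and from dorsal to ventral, and the combination a progenitor carries is tied to the neurons and glia that it gives rise to. The cortex and the ganglionic eminences belong to the telencephalon, where SIX3, LHX2, OTX1, MEIS2 and POU3F3 are expressed, while the Engrailed, GBX and Iroquois factors are best known from regions behind it.

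The targeted gene, Kat7, had 0, 0.0303, 0 and 0 CPM in null differentiating replicates 1 to 4 and 109, 109, 111 and 106 CPM in the intact ones, where CPM is the count scaled to a common library total of 1e6. Among proliferating cells it had 0.0651, 0.119, 0.159 and 0 CPM in the null and 139, 143, 138 and 139 CPM in the intact libraries, so that every library met its label. Library totals were 16784286 to 47890535 counts. Across genes, log2 CPM of libraries of one group had Pearson r values of 0.950 to 0.998, and intact differentiating replicate 1 was the least like its group (0.950 to 0.979). Intact proliferating replicate 1 had an r of 0.978 to 0.982 with its group, whose other libraries had 0.997 to 0.998 among themselves. Calls that are lost without these 2 libraries are given with that value. Summed levels of 10 neural progenitor markers were 5419 to 6876 CPM in the null and 3501 to 4891 CPM in the intact differentiating libraries. In proliferating libraries they were 7497 to 7759 CPM in the null and 7579 to 8078 CPM in the intact ones. With no reference level, these sums describe the cultures and do not test the progenitor label.

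The sequences before a start site of 4 genes that differed between genotypes in the same direction in both conditions are shown first. They are the 250 bases before a RefSeq start site of Dbx2 and Vax1, which were higher in null cells, and of Irx2 and Meis2, which were lower. The windows of Dbx2 and Vax1 end where the gene's span begins, while those of Irx2 and Meis2 lie inside it, before an internal start site. Each is read from 5′ to 3′ on the gene's strand, from RefSeq's table for GRCm38.p6 (the assembly that mm10 names), with every CG in capitals. The Dbx2 window is chr15:95654772-95655021 (minus strand), the Vax1 window chr19:59170398-59170647 (minus), the Irx2 window chr13:72628570-72628819 (plus) and the Meis2 window chr2:116064620-116064869 (minus).
Dbx2: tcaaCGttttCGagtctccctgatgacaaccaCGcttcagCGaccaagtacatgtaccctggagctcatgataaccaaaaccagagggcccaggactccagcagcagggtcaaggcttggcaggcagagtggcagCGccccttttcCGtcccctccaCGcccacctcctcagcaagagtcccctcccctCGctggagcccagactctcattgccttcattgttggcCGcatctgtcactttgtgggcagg
Vax1: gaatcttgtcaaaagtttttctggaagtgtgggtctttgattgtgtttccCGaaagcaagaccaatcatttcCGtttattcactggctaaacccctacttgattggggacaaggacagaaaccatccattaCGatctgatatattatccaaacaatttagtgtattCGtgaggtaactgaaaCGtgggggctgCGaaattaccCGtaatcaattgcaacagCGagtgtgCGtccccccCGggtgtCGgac
Irx2: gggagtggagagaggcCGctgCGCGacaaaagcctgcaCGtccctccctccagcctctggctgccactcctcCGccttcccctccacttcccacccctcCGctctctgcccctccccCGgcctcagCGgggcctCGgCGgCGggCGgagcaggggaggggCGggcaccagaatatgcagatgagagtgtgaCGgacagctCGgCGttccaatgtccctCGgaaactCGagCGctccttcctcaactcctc
Meis2: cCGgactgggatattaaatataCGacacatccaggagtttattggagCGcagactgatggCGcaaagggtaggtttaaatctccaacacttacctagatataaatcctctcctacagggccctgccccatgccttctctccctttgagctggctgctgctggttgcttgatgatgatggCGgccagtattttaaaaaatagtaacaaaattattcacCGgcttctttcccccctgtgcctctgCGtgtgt
The 4 windows held 9, 11, 19 and 7 CG, in this order. The table holds 38 windows for 31 of the 43 genes and 32851 windows of the same length in all, which held a median of 6 CG. The homeodomain core TAATTA, which reads the same on both strands, was in 7.89% of the 38 windows and in 4.84% of all windows, and in none of the 4 printed here. A match or its absence is a description of these letters only.

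Of the 43 genes, 12 were off, which here means a mean under 0.5 CPM in all 4 groups. These were Six6, Rax, Vax2, Lhx1 and Lhx9 of the forebrain and eye field set, Gbx1 of the midbrain and hindbrain set, Dbx1, Msx2, Msx3 and Nkx6-1 of the dorsoventral set, and Barhl1 and Pitx1 of the neuron subtype set. In the group where each was highest, the summed counts of the 4 libraries were 2 for Rax, 6 for Msx2 and Barhl1, 11 for Pitx1, 12 for Dbx1 and Msx3, 19 for Lhx9, 31 for Vax2, 42 for Gbx1 and 58 for Lhx1. Lhx1 was nearest below the threshold, at 0.486 ± 0.439 CPM in intact differentiating cells, followed by Gbx1 at 0.413 ± 0.155 CPM in null proliferating cells. Just above it were Lhx5 at 0.537 ± 0.581 CPM in intact differentiating cells and En1 at 0.716 ± 0.489 CPM in intact proliferating cells. Nkx6-1, a ventral neural tube gene, had no counts in any null library, against 19 counts over the intact differentiating and 20 counts over the intact proliferating libraries. With the floor for a group taken as 3 counts in all, it was at least 7.94-fold and at least 8.83-fold lower in null cells. Its intact levels were spread unevenly, with 0.0582, 0.0399, 0.167 and 0.380 CPM in differentiating and 0, 0.535, 0.454 and 0 CPM in proliferating replicates 1 to 4, so that null and intact proliferating libraries overlapped at 0. Intervals and floors here cover counting error only. Six6, an eye field gene, likewise had 0 counts in null and 23 counts in intact differentiating libraries, with 0.582, 0, 0 and 0.0950 CPM in intact replicates 1 to 4, so that 1 library held most of them. Gbx1 had enough counts to be tested although it was off, and Lhx5 was on but was not tested.

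Among the 31 genes that were on, 19 reached 0.5 CPM in every group and 12 in some groups only. The number at or above 0.5 CPM was 24 in null and 28 in intact differentiating cells, and 23 in null and 26 in intact proliferating cells. In differentiating cells, Lhx5, Irx3, Barhl2 and Zfhx4 reached 0.5 CPM in intact cells but not in null cells, and no gene did so in null cells alone. In proliferating cells, Vax1 and Pitx3 reached it in null cells alone, and En1, Gbx2, Irx1, Irx2 and Zfhx4 in intact cells alone. These are crossings of the threshold by group means. Null and intact libraries overlapped for Lhx5, Irx3 and Barhl2 in differentiating cells and for En1 and Gbx2 in proliferating cells. Lhx5 was not tested, and Irx3 was not called in differentiating cells. The heat map of all 43 genes shows these crossings beside genes such as Pou3f3 and Meis2, which were high in every library.

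**Figure D1:**
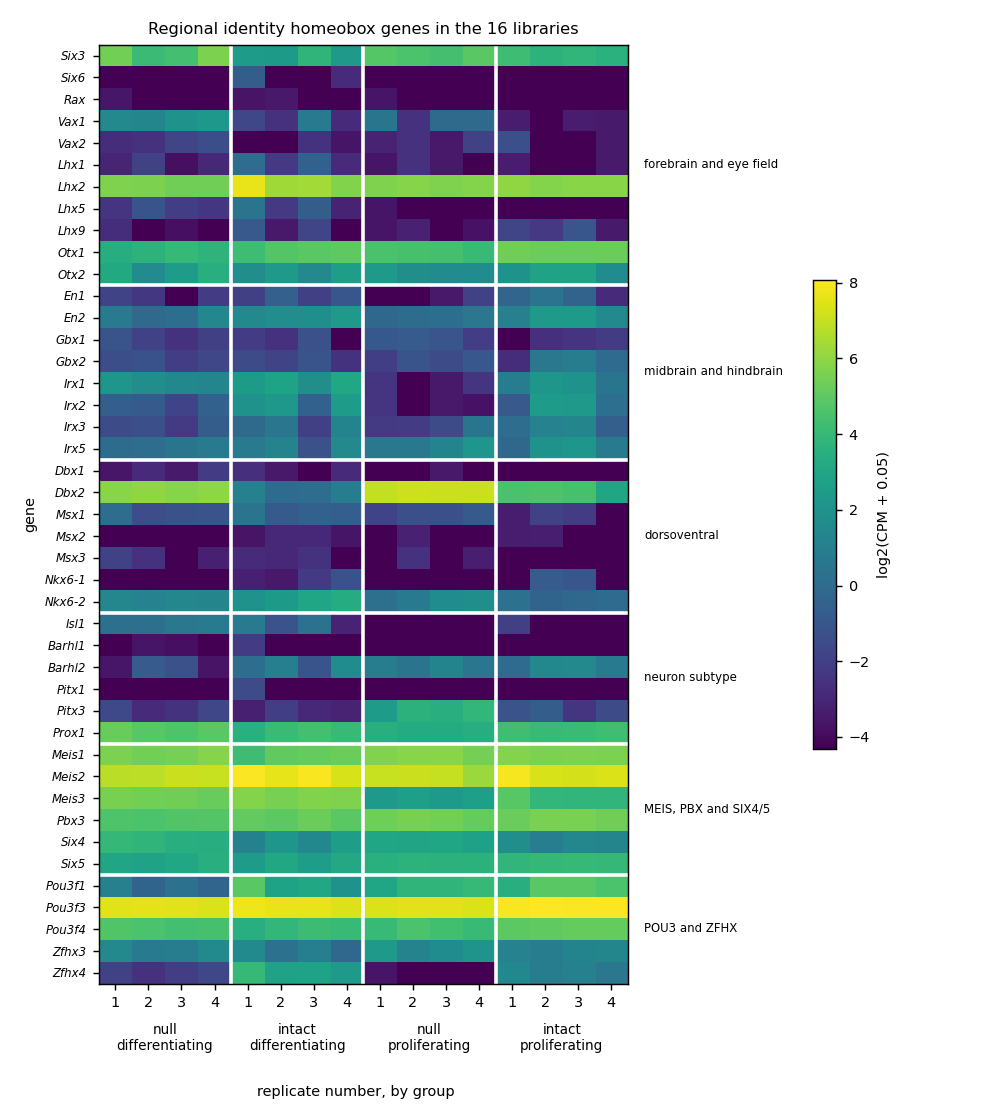
Level of the 43 homeobox genes (rows, by set) in the 16 libraries (columns, by group and replicate number), as log2(CPM + 0.05). Dbx2 is bright in the 8 null libraries and Zfhx4 dark in them, and the 12 genes that were off form the dark rows.

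On a scale that divides by gene length (TPM, which scales by gene length as well as depth), Pou3f3 led the 43 genes in null differentiating (134 ± 7.18 TPM, mean ± SD, n = 4), intact differentiating (151 ± 17.99) and intact proliferating cells (183 ± 3.49). In null proliferating cells Dbx2 came first, at 127 ± 7.43 TPM, with Pou3f3 next at 123 ± 7.06 TPM, a gap within their spread. Dbx2 was 2nd in null differentiating cells at 61.6 ± 3.67 TPM and 9th in intact proliferating cells at 18.4 ± 7.49 TPM, and it was not among the first 10 in intact differentiating cells.

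Of the 43 genes, 31 had enough counts to be tested. In differentiating cells, 7 were called higher and 10 lower in the null libraries (edgeR's quasi-likelihood test, Benjamini-Hochberg adjusted p under 0.05 over 15177 genes), where 46.4% of all tested genes were called, 24.3% higher and 22% lower. Fold changes are null over intact, with their SE, and gene positions below are those of RefSeq's gene table for GRCm38.p6. The median log2 fold change of the 31 was -0.22, against 0.037 over all tested genes. In proliferating cells, 7 were higher and 12 lower, where 38.6% of all tested genes were called, 19% higher and 19.7% lower, and the median was -0.43, against -0.013 over all tested genes. Without intact replicate 1 of both conditions the counts were 8 higher and 11 lower in differentiating cells, and 6 higher and 13 lower in proliferating cells. The genotype comparisons of the 2 conditions share no library, but they are not independent. They share the fit's estimate of the spread, and libraries of both conditions may come from the same foetuses. In both of them, Six3, Vax1, Dbx2 and Six4 were higher in null cells and Otx1, En2, Irx2, Meis2 and Zfhx4 lower. Nkx6-2, Prox1 and Pou3f4 were called in opposite directions. Lhx2, Barhl2, Meis1, Pbx3 and Pou3f1 were called in differentiating cells alone, En1, Gbx2, Irx1, Msx1, Pitx3, Meis3 and Pou3f3 in proliferating cells alone, and Otx2, Gbx1, Irx3, Irx5, Isl1, Six5 and Zfhx3 in neither. RNA of a whole culture was measured, so that fewer cells of a type and less RNA per cell cannot be told apart, and with no spike-in every change is relative to the other genes of the library.

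**Figure D2:**
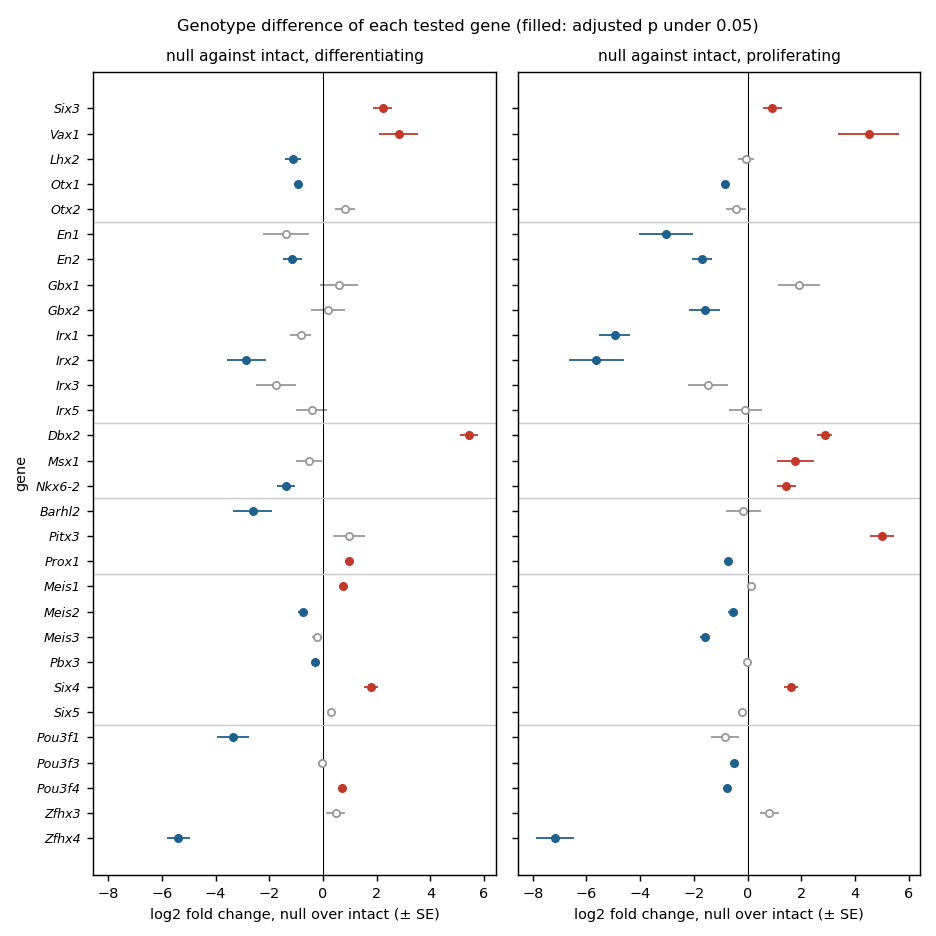
Log2 fold change of null over intact cells (± SE) for 30 of the 31 tested genes, in differentiating (left) and proliferating cells (right), filled where edgeR's adjusted p was under 0.05, red for higher and blue for lower in null cells. Zfhx4 lies at the far left of both panels, Dbx2 at the far right for differentiating and Pitx3 for proliferating cells, and Isl1, which has no SE in proliferating cells, is left out.

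Genes of the anterior forebrain and eye field moved in both directions. Of 5 tested, 2 were higher (Six3 and Vax1) and 2 lower (Lhx2 and Otx1) in null differentiating cells, with a median log2 fold change of 0.81. In null proliferating cells, 2 were higher (Six3 and Vax1) and 1 lower (Otx1), with a median of -0.064. Six3 (Entrez 20473, chromosome 17, 85613608 to 85626191) encodes a factor required for the anterior forebrain and the eye. It had 43.9, 17.3, 20.6 and 50.1 CPM in null differentiating replicates 1 to 4, against 5.59, 5.46, 13.98 and 5.13 CPM in intact ones. Every null library was above every intact one, with replicates 1 and 4 highest among the null and replicate 3 highest among the intact libraries (log2 fold change 2.23 ± 0.36, edgeR adjusted p = 0.000152). In proliferating cells Six3 had 28.4, 23.9, 21.5 and 30.3 CPM in the null and 18.6, 13.1, 14.3 and 12.3 CPM in the intact libraries, again without overlap (0.92 ± 0.35, edgeR adjusted p = 0.0477). Six3os1, which overlaps Six3, was higher in null differentiating cells as well (1.18 ± 0.39, edgeR adjusted p = 0.0221), and without a stated strand setting their reads cannot be told apart. The Six3 call in proliferating cells was lost when any of 9 single libraries was left out, with adjusted p of 0.0505 to 0.108. These were each null proliferating library, intact proliferating replicates 2, 3 and 4, null differentiating replicate 1 and intact differentiating replicate 2. It was also lost under both other scalings (edgeR adjusted p = 0.051 and 0.0737) and with all genes kept (0.0513).

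Vax1 (Entrez 22326, chromosome 19, 59164480 to 59170397), a gene of the ventral forebrain and optic stalk, had 2.80, 2.54, 4.03 and 4.82 CPM in the null and 0.262, 0.120, 1.76 and 0.0950 CPM in the intact differentiating cells. The groups did not overlap, and intact replicate 3, which was also high for Six3, stood above its group. The log2 fold change was 2.82 ± 0.71 (edgeR adjusted p = 0.00485), and 4.48 without that library. In proliferating cells Vax1 had 1.37, 0.119, 0.913 and 0.944 CPM in the null and 0.0511, 0, 0.0454 and 0.0442 CPM in the intact libraries (4.504 ± 1.15, edgeR adjusted p = 0.00509). The 3 counts over the intact proliferating libraries were 3.90% of the null level, with a 95% counting interval of 0.790 to 11.7%.

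Otx1 (Entrez 18423, chromosome 11, 21994764 to 22001651) is expressed in the developing cortex. It had 10.5, 13.1, 15.7 and 13.4 CPM in the null and 18.9, 27.3, 30.2 and 31.7 CPM in the intact differentiating cells (-0.94 ± 0.15, edgeR adjusted p = 0.000138). In proliferating cells it had 23.1, 22.5, 21.4 and 16.8 CPM in the null and 41.6, 38.5, 38.4 and 39.1 CPM in the intact libraries (-0.83 ± 0.15, edgeR adjusted p = 0.000504). In both conditions every null library was below every intact one. Lhx2 (Entrez 16870, chromosome 2, 38339271 to 38369737), which specifies cortical identity, was lower in null differentiating cells, with 51.0, 49.1, 41.8 and 42.2 CPM against 201, 79.5, 83.4 and 52.6 CPM in intact cells. Intact replicate 1 stood far above the others (-1.11 ± 0.29, edgeR adjusted p = 0.00581), and without it the fold change was -0.54 (edgeR adjusted p = 0.00201). In proliferating cells Lhx2 averaged 53.7 ± 2.52 CPM in the null and 59.2 ± 3.79 CPM in the intact libraries (± SD, n = 4, as in all means here) and did not pass (edgeR adjusted p = 0.885).

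Otx2, which patterns the forebrain and midbrain and is also expressed in the choroid plexus, passed in neither condition. It had 9.36, 3.09, 5.60 and 11.2 CPM in the null and 3.44, 5.10, 2.85 and 6.24 CPM in the intact differentiating cells (0.81 ± 0.38, edgeR adjusted p = 0.0925), although it did without null replicate 2 (1.07, edgeR adjusted p = 0.0225). Null replicates 1 and 4, the highest for Otx2, also had the highest summed level of 6 choroid plexus markers among the null differentiating libraries, at 82.1, 1.58, 1.61 and 27.0 CPM in replicates 1 to 4, against 109, 5.58, 41.2 and 4.91 CPM in intact ones. In intact differentiating replicates 1 and 3, where these markers were high as well, Otx2 was not, and the part of such cells in the Otx2 level was not tested. Beside Six3 and Vax1, the summed level of 6 retina and eye markers was 12.7 to 15.7 CPM in the null and 10.5 to 17.0 CPM in the intact differentiating libraries. Of these 6 markers, 2 were tested. In null differentiating cells 1 was called higher and 1 lower, so that the similar sums do not show that each marker was unchanged. In null proliferating cells 1 was called higher and 0 lower.

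Of 8 tested genes of the midbrain and hindbrain, none was called higher in null cells with all libraries. In null differentiating cells 2 were lower (En2 and Irx2; median log2 fold change of the 8 was -0.99), a share near that of all tested genes, and 5 were lower in null proliferating cells (En1, En2, Gbx2, Irx1 and Irx2; median -1.65). Their summed level in replicates 1 to 4 was 9.08, 6.94, 5.89 and 8.66 CPM in the null and 15.6, 20.1, 9.21 and 25.2 CPM in the intact differentiating cells, and 3.48, 3.69, 4.65 and 8.33 CPM in the null and 7.25, 24.3, 24.1 and 8.81 CPM in the intact proliferating cells. Intact proliferating replicates 2 and 3 were high and replicates 1 and 4 low, as the plot of these genes by library shows. The proliferating groups overlapped in this sum, with intact replicate 1 below the highest null library and intact replicate 4 just above it.

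**Figure D3:**
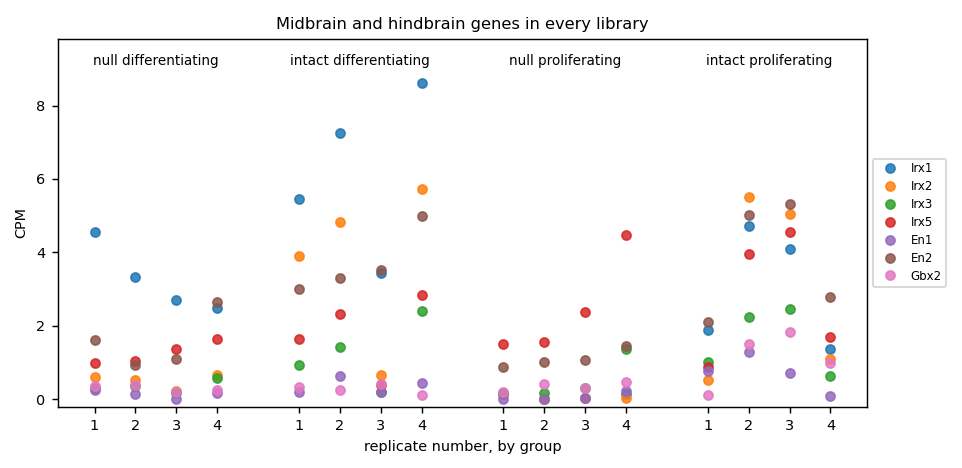
CPM of 7 midbrain and hindbrain genes (colours) in each library, by group and replicate number. Irx1, Irx2 and En2 are highest, among proliferating libraries, in intact replicates 2 and 3, and intact differentiating replicate 3 lies below its group for the Irx genes.

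Irx1 and Irx2 are neighbouring Iroquois genes on chromosome 13 and encode factors of neural patterning. Irx1 (Entrez 16371, chromosome 13, 71958232 to 71963723) had 0.130, 0, 0.0397 and 0.135 CPM in the null and 1.89, 4.71, 4.09 and 1.37 CPM in the intact proliferating cells. Every null library was near 0 and below every intact one (-4.95 ± 0.59, edgeR adjusted p = 1.41e-05). In differentiating cells Irx1 had 4.56, 3.33, 2.71 and 2.48 CPM in the null and 5.44, 7.25, 3.43 and 8.61 CPM in the intact libraries, groups that overlapped (-0.84 ± 0.40, edgeR adjusted p = 0.103). Irx2 (Entrez 16372, chromosome 13, 72624430 to 72634196) had 0.596, 0.515, 0.230 and 0.664 CPM in the null and 3.90, 4.82, 0.670 and 5.73 CPM in the intact differentiating cells, with intact replicate 3 just above the highest null library (-2.85 ± 0.74, edgeR adjusted p = 0.00545). Among proliferating libraries it had 0.130, 0, 0.0397 and 0.0270 CPM in the null and 0.511, 5.51, 5.04 and 1.11 CPM in the intact libraries (-5.64 ± 1.02, edgeR adjusted p = 0.000458, and -6.64 without null replicate 1). The lncRNA gene Gm20554 overlaps Irx2 and was itself lower in null proliferating cells (-3.59 ± 1.16, edgeR adjusted p = 0.0155). Their reads, too, cannot be told apart.

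En2 (Entrez 13799, chromosome 5, 28165696 to 28172190), one of the Engrailed genes of the midbrain and anterior hindbrain, had 1.61, 0.939, 1.09 and 2.65 CPM in the null and 3.00, 3.31, 3.52 and 5.00 CPM in the intact differentiating cells (-1.15 ± 0.35, edgeR adjusted p = 0.0149). When proliferating, it had 0.879, 1.01, 1.07 and 1.46 CPM in the null and 2.09, 5.03, 5.32 and 2.79 CPM in the intact libraries (-1.70 ± 0.37, edgeR adjusted p = 0.00199). The groups did not overlap in either condition. Its paralog En1 was lower in null proliferating cells, with 0, 0, 0.0397 and 0.216 CPM against 0.766, 1.28, 0.727 and 0.0885 CPM in intact cells, groups that overlapped (-3.04 ± 1.001, edgeR adjusted p = 0.0188). The En1 call was lost without null proliferating replicate 1 or 3 or intact proliferating replicate 2 (edgeR adjusted p = 0.052, 0.0508 and 0.0634), and the fold change was -5.22 without null proliferating replicate 4. Gbx2, which marks the hindbrain side of the boundary with the midbrain and the thalamus, had 0.195, 0.417, 0.318 and 0.458 CPM in the null and 0.102, 1.498, 1.82 and 0.974 CPM in the intact proliferating cells (-1.60 ± 0.58, edgeR adjusted p = 0.0383). The groups overlapped, and the call was lost without any of 6 libraries, with edgeR adjusted p of 0.0585 to 0.137. These were null proliferating replicates 1, 2 and 3 and intact proliferating replicates 2, 3 and 4. Keeping all genes (0.0503) and a fit of the proliferating groups alone (0.0788) also ended it.

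Irx3 and Irx5, neighbouring Iroquois genes on chromosome 8, did not pass in either condition with all libraries. Gbx1, a paralog of Gbx2 that was off, had 0.488, 0.536, 0.437 and 0.189 CPM in the null and 0, 0.107, 0.136 and 0.177 CPM in the intact proliferating cells. These groups did not overlap, and the fold change of 1.92 ± 0.79 missed the threshold (edgeR adjusted p = 0.0581) but passed without null proliferating replicate 4 or intact differentiating replicate 3 or 4 (edgeR adjusted p = 0.041, 0.0494 and 0.0255). Irx3 averaged 0.356 ± 0.170 CPM in the null and 1.25 ± 0.923 CPM in the intact differentiating cells (-1.74 ± 0.74, edgeR adjusted p = 0.0668), and 0.509 ± 0.582 CPM in the null and 1.59 ± 0.902 CPM in the intact proliferating cells. Null proliferating replicate 4 held most of the null level of Irx3, at 1.37 CPM, and without it the fold change was -2.74 (edgeR adjusted p = 0.0126), against -1.47 ± 0.76 (0.123) with all libraries. In differentiating cells Irx3 passed without null proliferating replicate 4 (edgeR adjusted p = 0.0315) or intact differentiating replicate 3 (0.0263), and by DESeq2's Wald test (adjusted p = 0.0441). Irx5 averaged 1.26 ± 0.312 CPM in the null and 1.79 ± 1.07 CPM in the intact differentiating cells, and 2.48 ± 1.39 CPM in the null and 2.76 ± 1.77 CPM in the intact proliferating cells, means that lay within the spread of the libraries.

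The dorsoventral set held the gene with the smallest adjusted p of all 31 in the differentiating cells. Of 3 tested, Dbx2 was higher and Nkx6-2 lower in null differentiating cells (median log2 fold change -0.52), and Dbx2, Nkx6-2 and Msx1 were all higher in null proliferating cells (median 1.78). Dbx2 (Entrez 223843, chromosome 15, 95623563 to 95654771) marks progenitors at an intermediate dorsoventral level of the neural tube. It had 58.7, 66.1, 57.1 and 62.4 CPM in the null and 2.07, 0.957, 1.05 and 1.77 CPM in the intact differentiating cells (5.43 ± 0.33, edgeR adjusted p = 2.64e-08). Its proliferating levels were 124, 141, 136 and 135 CPM in the null and 22.7, 24.8, 22.4 and 7.70 CPM in the intact libraries (2.87 ± 0.27, edgeR adjusted p = 2.11e-06). The lowest null library was thus more than any intact library in both conditions, and intact proliferating replicate 4 was well below its group. Its paralog Dbx1 stayed off, with 12 counts over the null and 8 counts over the intact differentiating libraries.

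Nkx6-2 (Entrez 14912, chromosome 7, 139579376 to 139582797), a ventral neural tube gene that is also expressed in oligodendrocytes, was lower in null differentiating cells, with 2.59, 2.21, 2.65 and 2.45 CPM against 4.11, 5.38, 7.91 and 10.1 CPM in intact cells (-1.38 ± 0.32, edgeR adjusted p = 0.00268). In proliferating cells it was higher, with 1.14, 1.73, 3.26 and 3.56 CPM in the null and 1.17, 0.749, 0.863 and 0.974 CPM in the intact libraries (1.45 ± 0.35, edgeR adjusted p = 0.0045). Null replicates 3 and 4 were high, and the groups overlapped only through null replicate 1. The span of Inpp5a overlaps that of Nkx6-2, and Inpp5a was higher in null cells in both conditions (0.44 ± 0.086 in differentiating and 1.12 ± 0.087 in proliferating cells, edgeR adjusted p = 0.000679 and 3.83e-07). Inpp5a averaged 45.5 ± 5.22 CPM in the null and 35.7 ± 2.91 CPM in the intact differentiating cells, and 59.3 ± 1.83 CPM in the null and 28.8 ± 2.21 CPM in the intact proliferating cells. Without a stated strand setting, reads of Inpp5a and Nkx6-2 cannot be told apart.

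Msx1, a dorsal midline gene that responds to BMP signals, had 0.228, 0.357, 0.357 and 0.512 CPM in the null and 0.0511, 0.214, 0.182 and 0 CPM in the intact proliferating cells (1.78 ± 0.69, edgeR adjusted p = 0.049), on 41 counts over the null and 9 counts over the intact libraries. The groups lay close together, and the call was lost when any of 12 single libraries was left out, with edgeR adjusted p of 0.0509 to 0.126. These were null proliferating replicates 2, 3 and 4, intact proliferating replicates 1, 3 and 4, and replicates 2, 3 and 4 of both differentiating groups. It was also lost without intact replicate 1 of both conditions (0.0734), under both other scalings (0.0516 and 0.0549) and with all genes kept (0.0624). In differentiating cells Msx1 averaged 0.532 ± 0.324 CPM in the null and 0.782 ± 0.377 CPM in the intact libraries and did not pass (edgeR adjusted p = 0.414).

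Among genes of neuron subtypes, 1 of 4 tested was higher (Prox1) and 1 lower (Barhl2) in null differentiating cells, and 1 was higher (Pitx3) and 1 lower (Prox1) in null proliferating cells. The medians of the 4 were 0.86 and -0.44. Pitx3 (Entrez 18742, chromosome 19, 46135281 to 46148325), known from midbrain dopaminergic neurons and the lens, had 5.73, 12.6, 11.0 and 14.6 CPM in the null and 0.409, 0.588, 0.136 and 0.310 CPM in the intact proliferating cells. Every null library was far above the highest intact one (5.01 ± 0.43, edgeR adjusted p = 9.23e-07). In differentiating cells it averaged 0.189 ± 0.0949 CPM in the null and 0.101 ± 0.0664 CPM in the intact libraries and did not pass (0.98 ± 0.59, edgeR adjusted p = 0.179). The span of Elovl3 overlaps that of Pitx3, and Elovl3 was higher in null proliferating cells too, at 0.920 ± 0.436 CPM against 0.143 ± 0.104 CPM in intact cells (2.68 ± 0.61, edgeR adjusted p = 0.00411).

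Prox1 (Entrez 19130, chromosome 1, 190118035 to 190170827), a gene of hippocampal granule neurons and of other differentiating cells, had 36.7, 29.2, 25.04 and 30.3 CPM in the null and 11.7, 17.8, 20.9 and 16.3 CPM in the intact differentiating cells (0.96 ± 0.14, edgeR adjusted p = 6.42e-05). In proliferating cells it had 11.4, 10.01, 9.73 and 10.7 CPM in the null and 19.4, 17.0, 17.3 and 19.3 CPM in the intact libraries (-0.73 ± 0.14, edgeR adjusted p = 0.000998). The groups did not overlap in either condition, and the direction was opposite. Barhl2, a gene of the diencephalon, retina and dorsal interneurons, had 0.0350, 0.545, 0.376 and 0.0289 CPM in the null and 1.05, 1.99, 0.419 and 3.26 CPM in the intact differentiating cells, groups that overlapped through null replicate 2 and intact replicate 3 (-2.62 ± 0.72, edgeR adjusted p = 0.00718, and -3.23 without null replicate 2). In proliferating cells Barhl2 averaged 1.73 ± 0.482 CPM in the null and 2.03 ± 0.878 CPM in the intact libraries.

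Isl1, a LIM homeobox gene of motor and striatal neurons, had 1.16, 1.15, 1.44 and 1.62 CPM in the null and 1.66, 0.399, 1.21 and 0.0633 CPM in the intact differentiating cells and did not pass (0.76 ± 0.70, edgeR adjusted p = 0.406, and 1.42 without intact replicate 1). The null libraries lay close together, while intact replicates 1 and 3 were high and replicates 2 and 4 low. Among proliferating libraries it had 0 counts in null and 4 counts in intact libraries, all 4 in replicate 1.

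**Figure D4:**
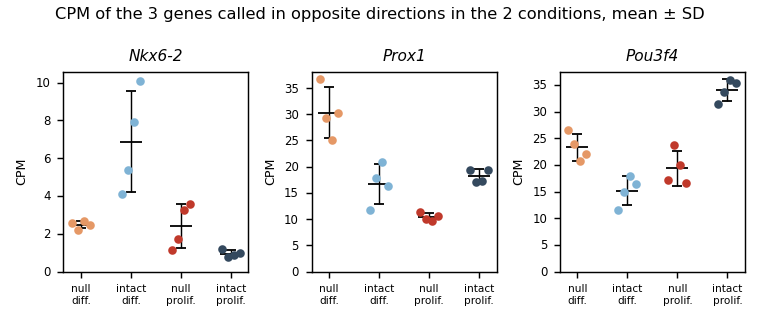
CPM of Nkx6-2, Prox1 and Pou3f4 in each library (points) with the mean ± SD of each group of 4 (bars). Prox1 and Pou3f4 are higher in the null libraries when differentiating and lower in them when proliferating, and Nkx6-2 is the other way round.

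The MEIS and PBX factors are partners of other homeodomain proteins, and SIX4 and SIX5 are relatives of SIX3. Of these 6 genes, all tested, 2 were higher (Meis1 and Six4) and 2 lower (Meis2 and Pbx3) in null differentiating cells, and 1 was higher (Six4) and 2 lower (Meis2 and Meis3) in null proliferating cells. The medians of the 6 were 0.046 and -0.11. Six4 (Entrez 20474, chromosome 12, 73099609 to 73114031) had 15.4, 13.7, 11.0 and 10.5 CPM in the null and 2.15, 4.54, 2.68 and 6.08 CPM in the intact differentiating cells (1.80 ± 0.26, edgeR adjusted p = 6.2e-05). When proliferating, it had 7.88, 7.57, 7.82 and 6.93 CPM in the null and 3.47, 1.93, 2.64 and 2.43 CPM in the intact libraries (1.61 ± 0.27, edgeR adjusted p = 0.000296). No null library reached down to the intact range in either condition. The span of Mnat1 overlaps that of Six4. Mnat1 averaged 28.6 ± 0.712 CPM in the null and 25.7 ± 4.96 CPM in the intact differentiating cells. In proliferating cells it averaged 31.4 ± 2.73 CPM in the null and 29.3 ± 2.09 CPM in the intact libraries. Without a stated strand setting, reads of Mnat1 and Six4 cannot be told apart. Six5 averaged 8.46 ± 1.62 CPM in the null and 7.27 ± 1.56 CPM in the intact differentiating cells, and 12.6 ± 0.590 CPM in the null and 15.3 ± 0.781 CPM in the intact proliferating cells, and passed in neither (edgeR adjusted p = 0.105 and 0.291).

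Meis2 (Entrez 17536, chromosome 2, 115861264 to 116067537), a gene of the ganglionic eminences and striatum, had 110.1, 115, 138 and 131 CPM in the null and 262, 199, 252 and 159 CPM in the intact differentiating cells (-0.73 ± 0.19, edgeR adjusted p = 0.00568). Its proliferating levels were 132, 135, 128 and 75.2 CPM in the null and 239, 163, 156 and 174 CPM in the intact libraries (-0.56 ± 0.19, edgeR adjusted p = 0.0318). The groups did not overlap, with null proliferating replicate 4 lowest and intact proliferating replicate 1 highest. The proliferating call was lost without null replicate 4 (-0.39, edgeR adjusted p = 0.0841), intact replicate 1 (-0.43, 0.0922) or intact replicate 4 (-0.57, 0.0515), and without intact replicate 1 of both conditions (-0.43, 0.0619).

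Meis1, which with Meis2 is expressed in telencephalic progenitors, had 50.5, 43.4, 46.6 and 56.7 CPM in the null and 18.6, 33.4, 35.2 and 38.9 CPM in the intact differentiating cells (0.74 ± 0.16, edgeR adjusted p = 0.00163) and averaged 54.0 ± 7.08 CPM in the null and 51.5 ± 2.18 CPM in the intact proliferating cells (edgeR adjusted p = 0.509). Meis3 (Entrez 17537, chromosome 7, 16174012 to 16186510), known from hindbrain patterning in zebrafish and Xenopus, had 5.01, 6.32, 5.00 and 6.42 CPM in the null and 29.1, 14.8, 14.49 and 14.2 CPM in the intact proliferating cells. Every null library was below every intact one, of which replicate 1 was highest (-1.58 ± 0.19, edgeR adjusted p = 1.53e-05). In differentiating cells Meis3 averaged 41.9 ± 4.09 CPM in the null and 51.7 ± 3.87 CPM in the intact libraries and did not pass (-0.22 ± 0.17, edgeR adjusted p = 0.33). Pbx3 had 25.7, 24.0, 26.7 and 27.2 CPM in the null and 34.6, 31.5, 39.4 and 30.5 CPM in the intact differentiating cells (-0.30 ± 0.11, edgeR adjusted p = 0.0305), a small difference whose call was lost without null differentiating replicate 1 or 2 or intact differentiating replicate 1 or 3 (edgeR adjusted p of 0.0639 to 0.1). In proliferating cells Pbx3 averaged 41.8 ± 4.78 CPM in the null and 44.0 ± 4.63 CPM in the intact libraries.

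The POU3 factors are expressed in cortical and striatal precursors, and ZFHX3 and ZFHX4 are large proteins with both zinc fingers and homeodomains. Of these 5 genes, all tested, 1 was higher (Pou3f4) and 2 lower (Pou3f1 and Zfhx4) in null differentiating cells, and 3 were lower (Pou3f3, Pou3f4 and Zfhx4) in null proliferating cells. The medians of the 5 were -0.043 and -0.75. Zfhx4 (Entrez 80892, chromosome 3, 5218218 to 5415861) had 0.210, 0.121, 0.188 and 0.260 CPM in the null and 15.8, 6.98, 7.32 and 5.10 CPM in the intact differentiating cells. All null libraries were far below the intact range (-5.39 ± 0.43, edgeR adjusted p = 2.86e-07). In proliferating cells it had a single count over the 4 null libraries and 2.76, 1.82, 2.04 and 1.46 CPM in intact ones (-7.16 ± 0.72, edgeR adjusted p = 1.84e-06, and -8.82 without null replicate 1, which held that count). The null level was 0.455% of the intact level, with a 95% counting interval of 0.0115 to 2.57%. Zfhx3 averaged 2.33 ± 0.672 CPM in the null and 1.77 ± 0.935 CPM in the intact differentiating cells, and 3.68 ± 1.17 CPM in the null and 2.24 ± 0.310 CPM in the intact proliferating cells, and passed in neither (edgeR adjusted p = 0.297 and 0.084). Without intact differentiating replicate 1 it passed in both (0.88 and 0.81, edgeR adjusted p = 0.0422 and 0.0383).

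Pou3f1 (Entrez 18991, chromosome 4, 124657646 to 124660655), a gene of cortical projection neurons and Schwann cells, had 2.07, 0.757, 1.17 and 0.779 CPM in the null and 29.99, 7.29, 8.75 and 4.05 CPM in the intact differentiating cells. The groups did not overlap and intact replicate 1 was far above the others (-3.34 ± 0.59, edgeR adjusted p = 0.000326). Without that library the fold change was -2.39 (edgeR adjusted p = 0.000341). The summed level of 6 neural crest markers, most of it Sox10, which oligodendrocytes also express, was 41.0 to 83.1 CPM in the null and 238 to 625 CPM in the intact differentiating libraries, and its part in the Pou3f1 level was not tested. In proliferating cells Pou3f1 averaged 12.8 ± 3.51 CPM in the null and 23.8 ± 8.97 CPM in the intact libraries and did not pass (-0.84 ± 0.52, edgeR adjusted p = 0.221), although it did without intact replicate 1 of both conditions (-1.08, 0.00731). Pou3f3 (Entrez 18993, chromosome 1, 42695768 to 42700210), a gene of upper-layer cortical neurons and their progenitors, had 168, 186, 182 and 164 CPM in the null and 247, 272, 262 and 261 CPM in the intact proliferating cells (-0.50 ± 0.08, edgeR adjusted p = 0.000195). It averaged 179.7 ± 10.8 CPM in the null and 197 ± 17.8 CPM in the intact differentiating cells and did not pass (edgeR adjusted p = 0.684). Pou3f4 (Entrez 18994, chromosome X, 110814379 to 110819108), expressed in striatal precursors and the inner ear, had 26.5, 23.8, 20.7 and 22.1 CPM in the null and 11.5, 14.9, 17.9983 and 16.4 CPM in the intact differentiating cells (0.71 ± 0.13, edgeR adjusted p = 0.000471). Among proliferating libraries it had 17.2, 23.7, 19.9 and 16.6 CPM in the null and 31.4, 33.6, 35.99 and 35.4 CPM in the intact libraries (-0.75 ± 0.13, edgeR adjusted p = 0.000433). The groups did not overlap in either condition.

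**Figure D5:**
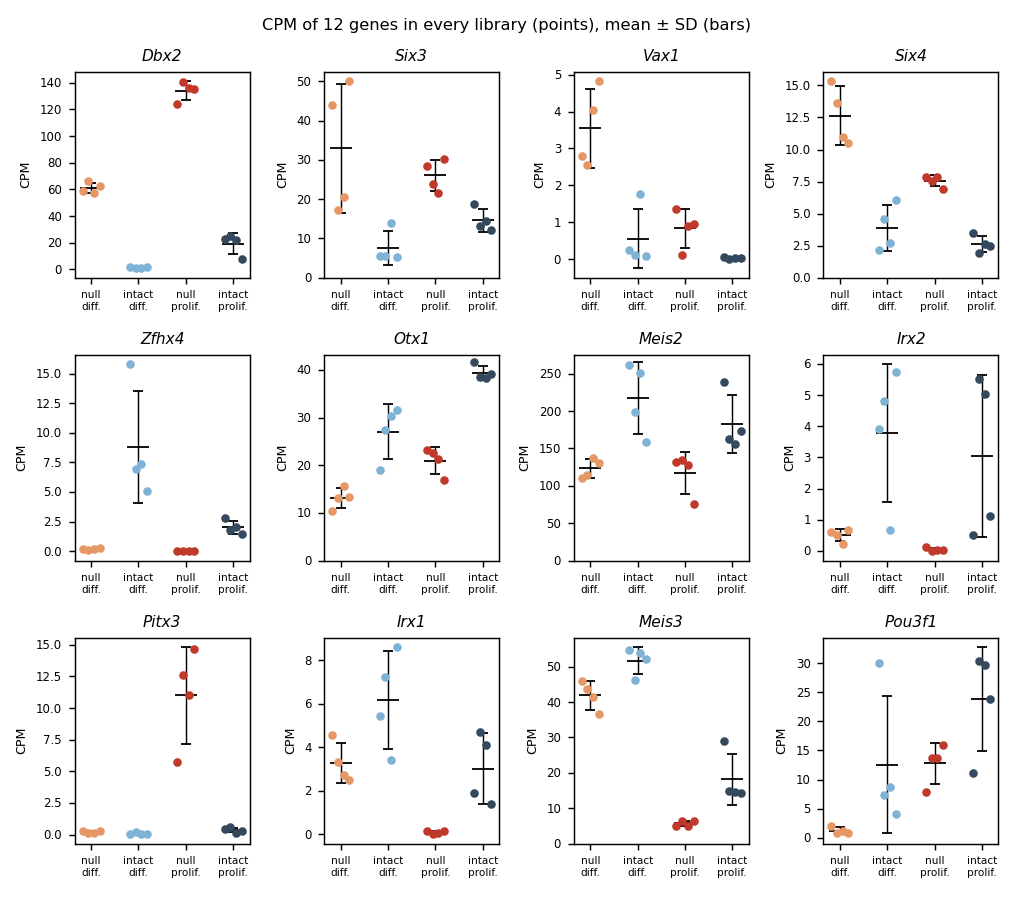
CPM of 12 of the genes in each library (points) with the mean ± SD of each group of 4 (bars), on linear axes. The top row shows 4 genes, with Dbx2 first, whose null libraries lie above the intact libraries, Six4 among them, and the middle row shows 4 whose null libraries lie below.

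With differentiation, 9 of the 31 tested genes rose and 7 fell in null cells, where 69% of all tested genes were called, 34.6% higher and 34.4% lower. In intact cells 8 rose and 10 fell, where 72% were called, 36.7% higher and 35.3% lower. The medians were -0.022 in null and -0.35 in intact cells, against 0.020 and 0.018 over all tested genes. In null cells Vax1, Otx2, Irx1, Irx2, Isl1, Prox1, Meis3, Six4 and Zfhx4 rose, and Otx1, Dbx2, Barhl2, Pitx3, Pbx3, Six5 and Pou3f1 fell. In intact cells Vax1, Lhx2, Irx1, Msx1, Nkx6-2, Isl1, Meis3 and Zfhx4 rose, and Six3, Otx1, Gbx2, Dbx2, Pitx3, Meis1, Pbx3, Six5, Pou3f3 and Pou3f4 fell. The steepest falls with differentiation were those of Pitx3 in null cells (-5.92 ± 0.45, edgeR adjusted p = 2.39e-08) and of Dbx2 in intact cells (-3.75 ± 0.32, edgeR adjusted p = 8.48e-08). Isl1 had no counts in null proliferating cells and 196 counts over the null differentiating libraries, and so rose at least 49.8-fold.

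Several of these stage calls rested on few libraries. In intact cells the rise of Lhx2 (0.76 ± 0.29, edgeR adjusted p = 0.0281) was 0.19 (edgeR adjusted p = 0.174) without intact differentiating replicate 1, and it was also lost without intact proliferating replicate 2, 3 or 4 (0.0611, 0.0527 and 0.0524). The rise of Irx1 (0.96 ± 0.41, edgeR adjusted p = 0.0466) was lost without any of 9 libraries, with edgeR adjusted p of 0.051 to 0.132. These were null proliferating replicates 1 and 3, intact proliferating replicates 1 and 4, null differentiating replicates 2, 3 and 4, and intact differentiating replicates 2 and 4. The rise of Vax1 (3.66 ± 1.24) was 1.99 (edgeR adjusted p = 0.0709) without intact differentiating replicate 3, and the fall of Six3 (-1.03 ± 0.35) was -0.90 (edgeR adjusted p = 0.0501) without intact differentiating replicate 2. The fold change of Isl1 (3.93 ± 1.12) was 7.52 without intact proliferating replicate 1, which held all 4 counts of its group, and 3.27 without intact differentiating replicate 1. Without intact replicate 1 of both conditions Six3 (-0.82, edgeR adjusted p = 0.0912), Lhx2 (0.20, 0.174), Irx1 (0.82, 0.101) and Pitx3 (-1.65, 0.0519) no longer passed, and Msx1 was 2.07 in place of 2.74 ± 0.65. In null cells the rise of Otx2 (0.89 ± 0.38, edgeR adjusted p = 0.0486) was lost without any of 8 libraries, with edgeR adjusted p of 0.0519 to 0.175. These were null proliferating replicates 2, 3 and 4, intact proliferating replicates 2 and 3, null differentiating replicates 1 and 4, and intact differentiating replicate 2. That of Six4 (0.68 ± 0.25) was lost without null proliferating replicate 2 or 4 or null differentiating replicate 1 or 2 (0.0539 to 0.0768). The rise of Irx2 (3.02 ± 1.12) was 2.74 (edgeR adjusted p = 0.0637) without null proliferating replicate 4 and 4.03 without null proliferating replicate 1. That of Zfhx4 (3.84 ± 0.96) was 5.50 without null proliferating replicate 1, and the fall of Barhl2 (-2.81 ± 0.72) was -3.42 without null differentiating replicate 2.

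The change with differentiation differed between genotypes for 9 of the 31 genes, where 22.7% of all tested genes were called, 12.7% with a higher and 9.93% with a lower response in null cells. It was higher in null cells for 6 genes and lower for 3, with a median difference of 0.46, against 0.040 over all tested genes. Irx1 changed by 5.08 ± 0.59 in null and 0.96 ± 0.41 in intact cells on the log2 scale, a difference of 4.12 ± 0.73 (edgeR adjusted p = 0.00112). For Dbx2, which fell in both genotypes, the changes were -1.19 ± 0.25 in null and -3.75 ± 0.32 in intact cells (difference 2.56 ± 0.41, edgeR adjusted p = 0.000552). Meis3 rose by 2.82 ± 0.19 in null and 1.45 ± 0.18 in intact cells (difference 1.37 ± 0.26, edgeR adjusted p = 0.00168). Prox1 changed by 1.47 ± 0.14 in null and -0.21 ± 0.14 in intact cells (difference 1.68 ± 0.20, edgeR adjusted p = 8.1e-05), and Pou3f4 by 0.21 ± 0.13 in null and -1.25 ± 0.13 in intact cells (difference 1.46 ± 0.19, edgeR adjusted p = 0.000144). Pou3f3 had the least of these differences (0.46 ± 0.11, edgeR adjusted p = 0.0095).

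The 3 genes with a lower response in null cells were Pitx3, Nkx6-2 and Pou3f1. Pitx3 changed by -5.92 ± 0.45 in null and -1.89 ± 0.58 in intact cells (difference -4.03 ± 0.79, edgeR adjusted p = 0.00237). Nkx6-2 changed by -0.034 ± 0.33 in null and 2.79 ± 0.35 in intact cells (difference -2.82 ± 0.48, edgeR adjusted p = 9e-04), so that its rise with differentiation passed in intact cells alone. For Pou3f1 the difference was -2.51 ± 0.77 (edgeR adjusted p = 0.03). It was -1.55 without intact differentiating replicate 1 (edgeR adjusted p = 0.051) and was lost as well without null proliferating replicate 3, intact proliferating replicate 4 or null differentiating replicate 2, 3 or 4 (0.0503 to 0.0626). Without intact replicate 1 of both conditions it was -1.31 (edgeR adjusted p = 0.0418).

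Other patterning genes, from lists that were not part of the 43, give the setting of these changes. Over all tested genes, 46.4% were called in differentiating and 38.6% in proliferating cells. Of 16 tested genes of 18 telencephalon factors, 4 were higher and 8 lower in null differentiating cells (median -0.86), and 1 was higher and 7 lower in null proliferating cells (median -0.47). Those with the smallest adjusted p in differentiating cells were Gsx1, Nr2f1, Fezf2 and Emx1. Emx1 and Fezf2, both genes of the cortex, were lower in null differentiating cells, with 0.0513 ± 0.0648 CPM in the null and 7.89 ± 7.66 CPM in the intact libraries for Emx1 (edgeR adjusted p = 0.000133), and 0.142 ± 0.0752 CPM in the null and 8.73 ± 9.04 CPM in the intact libraries for Fezf2 (edgeR adjusted p = 9.04e-05). Nr2f1, which patterns cortical areas, was lower in null differentiating (-0.91 ± 0.13, edgeR adjusted p = 4.51e-05) and null proliferating cells (-0.95 ± 0.13, edgeR adjusted p = 4.84e-05). Its paralog Nr2f2 was also lower in null proliferating cells (-2.03 ± 0.29, edgeR adjusted p = 6.68e-05). Gsx1, a gene of the ganglionic eminence, was higher in null differentiating (3.93 ± 0.48, edgeR adjusted p = 1.47e-05) and lower in null proliferating cells (-2.21 ± 0.59, edgeR adjusted p = 0.00711). Of 18 factors of the midbrain, hindbrain and spinal cord, 2 were tested, and both were lower in null differentiating cells. These were Nkx2-2 (-1.26 ± 0.25, edgeR adjusted p = 0.000757) and Lmx1a (-3.53 ± 0.68, edgeR adjusted p = 0.000535), while Nkx2-2 alone was lower in null proliferating cells (-1.01 ± 0.25, edgeR adjusted p = 0.00577). Of 6 tested genes of 10 diencephalon factors, a list that shares Barhl2 and Gbx2 with the 43, 1 was higher and 3 lower in null differentiating cells, and 3 were lower in null proliferating cells. Of 14 tested genes of 22 patterning signals and their modulators, 4 were higher and 6 lower in null differentiating cells and 3 were higher and 5 lower in null proliferating cells. Sfrp2, a secreted modulator of Wnt signals, was lower in both (-2.78 ± 0.23 and -2.07 ± 0.22, edgeR adjusted p = 3.69e-07 and 5.12e-06).

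Markers of cell types also differed between the genotypes. Of all tested genes, 46.4% were called in differentiating cells (24.3% higher and 22% lower in null) and 38.6% in proliferating cells (19% and 19.7%). Of the 10 neural progenitor markers, 8 were higher in null differentiating cells, and 2 were higher and 2 lower in null proliferating cells. The summed level of 6 astrocyte markers was 3375 to 5322 CPM in the null and 823 to 1576 CPM in the intact differentiating libraries, and 1011 to 1709 CPM in the null and 277 to 692 CPM in the intact proliferating libraries, and 3 of 6 were called higher in differentiating and 2 of 6 in proliferating cells. That of 8 oligodendrocyte lineage markers was 1887 to 2334 CPM in the null and 3474 to 7084 CPM in the intact differentiating libraries, and 1650 to 2180 CPM in the null and 2917 to 3313 CPM in the intact proliferating libraries, with 5 of 8 lower in each. Of 8 neuron markers, 1 was higher and 4 lower in null differentiating cells (2080 to 2497 CPM in the null and 2005 to 5415 CPM in the intact libraries), and 3 were lower in null proliferating cells (942 to 1155 CPM in the null and 997 to 1065 CPM in the intact libraries). Of 10 mesenchyme markers, 8 were tested, and 1 was higher and 6 lower in null differentiating cells (17.2 to 32.6 CPM in the null and 56.9 to 191 CPM in the intact libraries), while 1 was higher and 3 lower in null proliferating cells (37.7 to 123 CPM in the null and 13.1 to 17.7 CPM in the intact libraries, the higher one being Acta2). In proliferating cells, the shares of progenitor and neuron markers called in either direction were near that of all tested genes. The same held for astrocyte markers in both conditions, although every one that was called was higher in null cells. Their median log2 fold changes were 1.67 in differentiating and 0.35 in proliferating cells. No marker of these lists was without counts in a whole group, except 1 oligodendrocyte marker in intact proliferating cells. The part of such cells in the levels of the homeobox genes was not tested.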

How the data were processed

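PolyA RNA of 16 libraries (TruSeq, 75 base paired-end reads) had been counted per gene by the authors. The deposited files hold whole-number counts for 27179 Entrez genes with gene lengths, per the file headers, and the submitters' processing notes name bcl2fastq, featureCounts and the mm10 build. Versions, aligner, annotation and strand setting are not stated there or in the labels. RefSeq's table for GRCm38.p6 gave symbols for 25275 genes, and the positions and promoter windows. CPM (count over library total) and TPM (with the deposited length) were computed here. The counts of all 16 libraries were fitted together with edgeR 4.0.16 in R 4.3.3 (quasi-likelihood F test, TMM scaling, 1 mean per group, filterByExpr with a minimum count of 10, 15177 genes, Benjamini-Hochberg adjustment, threshold 0.05). The log2 fold changes given are edgeR's default values, which a small added count shrinks. The SE is the size of the log2 fold change fitted without that added count, over the square root of F. The common biological coefficient of variation was 0.2. The fit was tested on simulated counts. DESeq2 1.42.0 was an alternative. Tables and plots used Python 3.11.15, pandas 2.3.3, numpy 2.4.6, scipy 1.17.1 and matplotlib 3.10.9.

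Library totals of 16784286 to 47890535 counts make 3 counts over a group the floor for detection. Values in every library are given for genes that were on and called in a genotype comparison or in the difference of responses, other genes that were on by group values, genes that were off by summed counts or by name, and of other lists up to 4 called genes each. Some genes of those other lists are not reported here. The genes and lists were chosen with earlier results of these data known. The alternatives were other scalings, filters and tests, replicate blocks, fits of fewer groups and leaving out libraries. Whether libraries that share a replicate number pair was checked by correlating their deviations from the group means.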

Additional observations from a re-analysis of the deposited data

Results flagged for a closer look

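In 8 of 101 groups of 4 libraries, 1 library lay so far from the others that its gap to the nearest was above Dixon's 95% critical value as a share of the range, which chance gives in about 1 in 20 groups. In intact differentiating cells, replicate 3 had 13.98 CPM of Six3, where the others had 5.13 to 5.59 CPM, and 1.76 CPM of Vax1, where the others had 0.0950 to 0.262 CPM. In null proliferating cells, replicate 1 had 5.14 CPM of Otx2 (others 3.14 to 3.46), and replicate 4 had 1.37 CPM of Irx3 (others 0.163 to 0.318) and 75.2 CPM of Meis2 (others 128 to 135). In intact proliferating cells, replicate 4 had 7.70 CPM of Dbx2 (others 22.4 to 24.8) and replicate 1 had 29.1 CPM of Meis3 (others 14.2 to 14.8). In null differentiating cells, replicate 1 had 1.02 CPM of Msx1 (others 0.333 to 0.404).

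For 9 genes the change with differentiation differed between null and intact cells by edgeR's test of that difference. The log2 difference, null minus intact, was 4.12 for Irx1, 2.56 for Dbx2, 1.68 for Prox1, 1.46 for Pou3f4, 1.37 for Meis3 and 0.46 for Pou3f3, and it was -2.82 for Nkx6-2, -4.03 for Pitx3 and -2.51 for Pou3f1.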

How the results depend on the processing

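Of 79 calls, none reversed under any of the 26 settings, 65 held whichever single library was left out and 46 under every alternative run for them, of which there were 23 to 26 for each call. No isolate block could be run for the genotype comparisons. Against a minimum change of 1.5-fold, the called genes were 11 in differentiating cells (5 higher and 6 lower in null), 10 in proliferating cells (5 and 5), 10 with differentiation in null cells (6 higher and 4 lower) and 11 in intact cells (6 and 5). Leaving out a single library gave 16 to 18 calls in differentiating and 15 to 20 in proliferating cells, 13 to 18 with differentiation in null and 17 to 20 in intact cells, and 8 to 12 differences of response, and leaving out intact replicate 1 of both conditions gave 19 in differentiating and 19 in proliferating cells. A fit of the contrast's groups alone called 12 genes with differentiation in intact cells (4 higher and 8 lower), and DESeq2's Wald test called 13 differences of response (7 and 6). Genes that were off numbered 15 at 1 CPM, 10 at 0.25 CPM, 13 at 0.5 TPM and 8 by the highest library. Uncalled fold changes that changed sign were those of Irx5 (-0.54 to 0.28, with 0.098, 0.082 and 0.14 between), Barhl2 (-0.40 to 0.036) and Pbx3 (-0.085 to 0.066) in proliferating cells, and of Gbx2 (-0.062 to 0.42) and Pou3f3 (-0.099 to 0.022) in differentiating cells, where Pou3f3 was 0.023 without intact replicate 1 of both conditions, and the cause was not tested. Libraries with the same replicate number did not deviate together (r of -0.27 to 0.16 over 8 pairs, with the own number best in 0). With the number as a replicate block 17 genes were called in differentiating and 16 in proliferating cells, 16 with differentiation in null and 17 in intact cells, and 8 in their difference. It ended the calls of Six3 (adjusted p = 0.0549), Gbx2 (0.07) and Msx1 (0.0619) in proliferating cells, of Irx1 with differentiation in intact (0.0693) and Otx2 in null cells (0.0824), and of Pou3f1 in the difference (0.0582). A block on the isolate gave 13, 16 and 9 for the last 3, and ended the calls of Otx2 (0.0862), Irx2 (0.0599) and Six4 (0.0535) in null cells, of Lhx2 (0.0748) and Irx1 (0.0722) in intact cells, and of Pou3f1 (0.155). Counts near 0, as for Msx1, Vax1, Irx1 and Zfhx4, limit the precision of their fold changes.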
